A study of Homo sapiens with 6 samples.

Results

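The serpins on the long arm of chromosome 18 form a row of neighbouring genes of clade B, the branch of the serpin family whose proteins mostly stay inside the cell. Of the 22354 rows of the counts table, 8 belong to the genes described here, SERPINB2, SERPINB3, SERPINB4, SERPINB5, SERPINB7, SERPINB8, SERPINB10 and SERPINB13. These 8 genes were selected on values of the same libraries, because SERPINB2 was lower and SERPINB5 higher in the libraries labelled BMAL1 knockout than in control libraries. Every difference in them between these groups is therefore a description, and no p-value is given for them. Standard errors and 95% intervals given for them take no account of this selection and are no test of them. Reads were counted for 4 of the 8 genes, and the other 4 had 0 reads in all 6 libraries.

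Libraries were made from the human thyroid line HTori-3.1, which is described as normal, with 3 for control cells, labelled wild type, and 3 for cells labelled as a knockout of BMAL1, a transcription factor of the circadian clock. The knockout cells had been given a CRISPR-Cas9 virus against BMAL1, selected with puromycin and taken as single clones. Control and knockout cells alike had received 2 μM etoposide, which blocks topoisomerase and so breaks DNA, to bring on senescence, for a time that one label gives as 12 h and another as 24 h. Total counts were 26893063, 27029060 and 28513703 for control replicates 1, 2 and 3, against 43148059, 29860233 and 43563391 for knockout replicates 1, 2 and 3. How many clones stand behind the 3 knockout libraries is not given in the sources used here, so an effect of the knockout and a property of a clone cannot be told apart. Whether control cells received a virus, Cas9 or puromycin is not given there either, and an effect of that handling cannot be told apart from the knockout.

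Most serpins inhibit a protease by offering it a loop as bait and, once the loop is cut, changing shape so that the enzyme stays trapped. SERPINB2, also called plasminogen activator inhibitor type 2, acts in this way on urokinase and is a known gene of stressed and senescent cells, whereas SERPINB5, or maspin, has lost inhibition of this kind and is known as a tumour suppressor of epithelial cells. Several of the others, SERPINB3, SERPINB4 and SERPINB13 among them, are typical of squamous epithelium and act on cathepsins or chymase-like enzymes.

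BMAL1 itself was not lower in the libraries labelled BMAL1 knockout. It had 304, 326 and 409 reads in control replicates 1, 2 and 3 and 764, 603 and 860 reads in knockout replicates 1, 2 and 3, or 12.7 ± 1.70 CPM (counts scaled to library size with TMM factors; SD, n = 3) against 19.0 ± 0.987 CPM (SD, n = 3). The log2 fold change, knockout over control, was 0.58 (SE 0.11; adjusted p = 0.0204 by the quasi-likelihood test of edgeR after Benjamini-Hochberg adjustment), and all 3 knockout libraries lay above all 3 control libraries. The adjusted p of BMAL1 in edgeR was 0.0896 without control replicate 1, 0.113 without control replicate 2, 0.0749 without knockout replicate 2 and 0.0598 without knockout replicate 3. Over all alternatives it ranged from 0.00163 in DESeq2 to 0.113, and the ranges of adjusted p given for other genes likewise include DESeq2 and limma-voom. Counts over a whole gene do not show whether its sequence was edited or its protein lost, a western blot that the study describes for its knockout cells was not analysed here, and the groups are named by their labels throughout. Knockout replicate 1 stood apart from the other knockout libraries over all genes, with counts that differed from those of replicates 2 and 3 by 31.1 and 45.0 times the variance of counting alone, against 7.43 times between replicates 2 and 3.

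The 8 genes span 542.8 kb of hg38, from chr18:63476958-64019779, with 6 on the plus strand and 2, SERPINB4 and SERPINB3, on the minus strand. From the centromere side they run SERPINB5 (ENSG00000206075.14, chr18:63476958-63505085), SERPINB13 (ENSG00000197641.12, chr18:63586989-63604639), SERPINB4 (ENSG00000206073.11, chr18:63637259-63644256), SERPINB3 (ENSG00000057149.16, chr18:63655197-63661893), SERPINB7 (ENSG00000166396.13, chr18:63752935-63805376), SERPINB2 (ENSG00000197632.9, chr18:63871692-63903888), SERPINB10 (ENSG00000242550.7, chr18:63907958-63936111) and SERPINB8 (ENSG00000166401.15, chr18:63970029-64019779). SERPINB12 and SERPINB11, the remaining clade B genes of this stretch, lie between them, and 3 further clade B genes, SERPINB1, SERPINB6 and SERPINB9, are on chromosome 6. SERPINB2 and SERPINB5, the genes with values furthest apart in direction, thus sit at different places in one row and are read in the same direction along the chromosome.

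The promoters shown are those of SERPINB2, SERPINB5 and SERPINB8, the genes with reads whose groups did not overlap in CPM. Sequences were taken from RefSeq (build GRCh38.p14), as 250 bases before to 50 bases after a transcription start, and 7 of the 8 genes matched, with 9 windows in all. The windows shown are chr18:63887455-63887754 for SERPINB2, chr18:63476708-63477007 for SERPINB5 and chr18:63969831-63970130 for SERPINB8, each on the plus strand, and the SERPINB2 window lies inside the gene as GENCODE annotates it. Capitals mark matches to the motifs searched on both strands, which were the AP-1 motif TGANTCA, the TATA motif TATAAA (on the other strand read as TTTATA) and the GC box GGGCGG (on the other strand read as CCGCCC). The E-box CACGTG, the element known to be bound by BMAL1 with CLOCK, was searched as well.
SERPINB2 promoter: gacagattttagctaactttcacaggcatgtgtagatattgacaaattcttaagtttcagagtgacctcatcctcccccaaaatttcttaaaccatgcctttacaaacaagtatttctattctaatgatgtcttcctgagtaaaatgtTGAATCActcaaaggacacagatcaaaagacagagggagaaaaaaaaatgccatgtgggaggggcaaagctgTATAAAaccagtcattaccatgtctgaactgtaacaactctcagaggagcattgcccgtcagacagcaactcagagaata
SERPINB5 promoter: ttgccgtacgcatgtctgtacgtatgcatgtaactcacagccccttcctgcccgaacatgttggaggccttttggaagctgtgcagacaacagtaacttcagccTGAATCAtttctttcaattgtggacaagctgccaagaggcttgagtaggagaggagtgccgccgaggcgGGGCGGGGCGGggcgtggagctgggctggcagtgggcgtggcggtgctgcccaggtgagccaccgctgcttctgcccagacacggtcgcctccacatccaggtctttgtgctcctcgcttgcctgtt
SERPINB8 promoter: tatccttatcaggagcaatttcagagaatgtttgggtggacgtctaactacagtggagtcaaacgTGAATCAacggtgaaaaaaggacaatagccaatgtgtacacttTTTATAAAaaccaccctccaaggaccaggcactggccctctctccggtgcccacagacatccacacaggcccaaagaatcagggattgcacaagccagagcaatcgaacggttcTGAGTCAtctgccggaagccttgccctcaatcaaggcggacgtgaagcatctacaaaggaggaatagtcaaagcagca

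A match to TGANTCA, in which N is any base, is called an AP-1 sequence here. Such a match was found in each of these 3 windows. With positions counted from the transcription start to the first base of the match, TGAATCA began at −102 in the SERPINB2 promoter, at −146 in the SERPINB5 promoter and at −185 in the SERPINB8 promoter, where TGAGTCA also began at −28. The windows differed in other letters. SERPINB2 had TATAAA at −30 and a GC content of 39.0%, whereas SERPINB5 had no TATA sequence, had overlapping GGGCGG matches at −77 and −72 and reached a GC content of 59.7%. In the SERPINB8 window, with a GC content of 48.7%, TTTATA at −142 and TATAAA at −140 overlapped. Of the 9 windows, 6 had at least 1 AP-1 sequence (those of SERPINB2, SERPINB5, SERPINB8 and SERPINB13 and 2 of the 3 of SERPINB7), 4 had a TATA sequence, 1 a GC box and 0 an E-box. Among 35116 promoters of this length, AP-1 letters were present in 7.7%, TATA letters in 11.5%, a GC box in 45.0% and an E-box in 7.3%. The windows of SERPINB3 and SERPINB4 held none of these letters and were identical at 296 of 300 bases.

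SERPINB2, the urokinase inhibitor, showed the widest separation between the groups. It had 662, 621 and 768 reads in control replicates 1, 2 and 3, and 276, 135 and 161 reads in knockout replicates 1, 2 and 3. In CPM these were 24.7, 23.2 and 27.4 for control against 6.47, 4.42 and 3.63 for knockout, so the lowest control library lay well above the highest knockout library. The mean was 25.1 ± 2.13 CPM (SD, n = 3) in control and 4.84 ± 1.46 CPM (SD, n = 3) in knockout, a log2 fold change of −2.37 (SE 0.18; 95% interval −2.76 to −1.98), or 5.17-fold lower in knockout. The knockout libraries varied more among themselves, with a coefficient of variation of 30.2% against 8.5% in control, and replicate 1 was the highest of them. Without that library the log2 fold change was −2.65. In bulk RNA, fewer cells with SERPINB2 and less SERPINB2 RNA per cell cannot be told apart.

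SERPINB8, an inhibitor of the proprotein convertase furin, had the most reads of the 8 genes in every library. Its counts were 831, 884 and 843 in control replicates 1, 2 and 3 and 1227, 661 and 982 in knockout replicates 1, 2 and 3. The higher counts of knockout replicates 1 and 3 went with deeper sequencing, as in CPM the values were 31.0, 33.1 and 30.1 for control and 28.7, 21.7 and 22.2 for knockout. The groups did not overlap, but knockout replicate 1 came close to the control range. The mean was 31.4 ± 1.52 CPM (SD, n = 3) against 24.2 ± 3.96 CPM (SD, n = 3), with a log2 fold change of −0.37 (SE 0.11; 95% interval −0.62 to −0.12), and of −0.52 without knockout replicate 1. SERPINB8 was thus lower by a far smaller factor than SERPINB2, 1.30-fold against 5.17-fold.

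SERPINB7, also called megsin and known from kidney mesangial cells and skin, had overlapping groups. Reads numbered 116, 139 and 153 in control replicates 1, 2 and 3, or 4.32, 5.20 and 5.46 CPM. In knockout replicates 1, 2 and 3 they numbered 251, 107 and 173, or 5.88, 3.51 and 3.90 CPM. Knockout replicate 1 was the highest of the 6 libraries and knockout replicate 2 the lowest, so that the spread within the knockout group was wider than the distance between the means, 4.995 ± 0.596 CPM (SD, n = 3) in control and 4.43 ± 1.27 CPM (SD, n = 3) in knockout. The log2 fold change of −0.17 (SE 0.20) had a 95% interval of −0.61 to 0.27, and it ranged from −0.43 (without knockout replicate 1) to −0.03 when single libraries were left out.

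SERPINB5, the member without protease inhibition, was the only one of the 4 genes with reads that was higher in knockout. It also had the fewest reads of the 4, with 16, 17 and 19 reads in control replicates 1, 2 and 3 and 74, 46 and 63 reads in knockout replicates 1, 2 and 3. These correspond to 0.596, 0.636 and 0.679 CPM in control and 1.73, 1.51 and 1.42 CPM in knockout, with no overlap. The mean rested on few reads, at 0.637 ± 0.0411 CPM (SD, n = 3) in control and 1.55 ± 0.161 CPM (SD, n = 3) in knockout. The log2 fold change was 1.28 (SE 0.26; 95% interval 0.73 to 1.84), or 2.43-fold higher, and its standard error was the largest of the 4 genes. Without knockout replicate 1 the log2 fold change was 1.19.

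**Figure D1:**
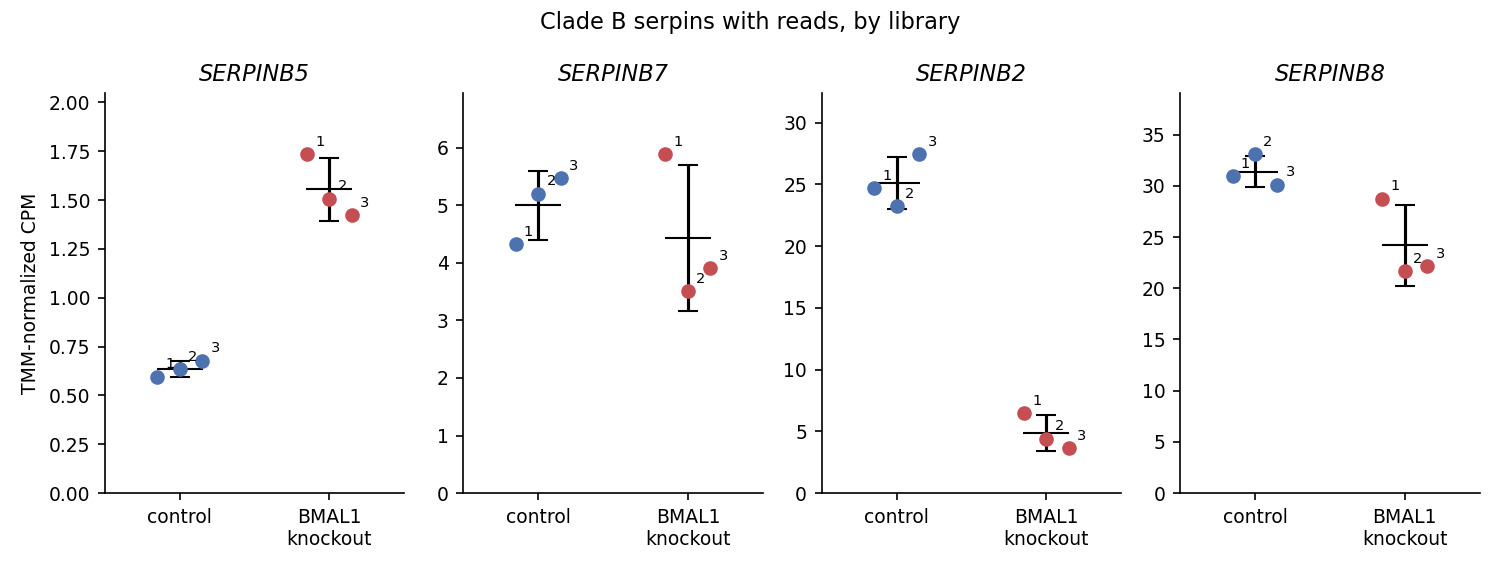
TMM-normalized CPM of SERPINB5, SERPINB7, SERPINB2 and SERPINB8 in each library (points, numbered by replicate), with control in blue, BMAL1 knockout in red, horizontal lines at the group mean and bars for ± 1 SD (n = 3); each panel has its own vertical axis from 0. SERPINB2 lies near 25.1 CPM in control and 4.84 CPM in knockout, SERPINB5 is higher in all 3 knockout libraries, and the groups overlap for SERPINB7.

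In the plot of CPM by library, knockout replicate 1 was the highest of its group for each of SERPINB2, SERPINB5, SERPINB7 and SERPINB8. It was also the highest of its group for SERPINB1, at 68.7 CPM against 55.03 and 54.41 CPM in replicates 2 and 3, and for SERPINB6, at 121 CPM against 110.3 and 107 CPM, so this was not particular to the 4 genes. This held for SERPINB5, which was higher in knockout, as for SERPINB2 and SERPINB8, which were lower. Replicate 1 had a total of 43148059 counts, close to the 43563391 of replicate 3, whose CPM were lower for all 4 genes, and the part of depth in these values was not tested.

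The other 4 genes had no reads. SERPINB3 and SERPINB4, the squamous cell carcinoma antigens, SERPINB13, an inhibitor of cathepsins in keratinocytes, and SERPINB10, known from blood-forming cells, were at 0 in all 6 libraries. Taking 3 counts as the limit that a count of 0 allows, each was at most 0.112, 0.112 and 0.107 CPM in control replicates 1, 2 and 3 and 0.0702, 0.0982 and 0.0677 CPM in knockout replicates 1, 2 and 3, limits that cover counting error only. By reads alone they stood apart from SERPINB5, whose lowest count was 16. No fold change can be given for these genes, and a difference between the groups was not detectable at this depth.

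Sharing of reads between these genes was limited, as far as annotation shows it. No stretch of 150 bases, the read length, was common to the canonical transcripts of any pair of the 13 clade B genes, SERPINB3 and SERPINB4 included. SERPINB2 shared 547 exon bases (20% of its exon bases) and SERPINB10 293 exon bases (13.6%) with ENSG00000289724, a protein-coding gene annotated across both on the same strand, and that gene was at 0 in all 6 libraries. SERPINB8 shared 370 exon bases (6.4%) with HMSD, which had 1 read in knockout replicate 3 and 0 elsewhere, and 153 exon bases (2.7%) with a long noncoding RNA on the other strand. SERPINB3 shared 620 exon bases (36.3%) with SERPINB11 on the opposite strand, both at 0, and SERPINB5 shared none. Strandedness of the counting is not given in the sources used here, so reads in the bases that SERPINB8 shares with its antisense partner could not be told apart, and reads in the bases that SERPINB2 shares remain uncertain.

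The order of the genes by level, compared per kilobase of exon, was not the same in both groups. In control, SERPINB2 came first at 9.16 ± 0.779 CPM per kilobase, ahead of SERPINB8 at 5.44 ± 0.263, SERPINB7 at 1.89 ± 0.226 and SERPINB5 at 0.170 ± 0.0110 CPM per kilobase (SD, n = 3), with all neighbours in that order separated by more than their spread. In knockout, SERPINB8 came first at 4.20 ± 0.686 CPM per kilobase, followed by SERPINB2 at 1.77 ± 0.533 and SERPINB7 at 1.68 ± 0.482, which did not differ beyond their spread, and SERPINB5 was again last at 0.415 ± 0.0431 CPM per kilobase (SD, n = 3). SERPINB2 thus passed from the leading gene of the row to the level of SERPINB7.

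The ratio of 2 genes within a library does not depend on how libraries are scaled. Per kilobase, SERPINB2 over SERPINB8 was 1.68, 1.48 and 1.92 in control replicates 1, 2 and 3 and 0.473, 0.430 and 0.345 in knockout replicates 1, 2 and 3. Knockout replicate 1, high for each gene alone, lay close to the other knockout libraries in this ratio. SERPINB2 over SERPINB5 was 56.5, 49.9 and 55.2 in control and 5.09, 4.01 and 3.49 in knockout, with means of 53.8 ± 3.50 and 4.20 ± 0.818 (SD, n = 3). Both ratios separated the groups, as follows from genes selected on this difference.

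Read together, the 8 genes made up fewer of the reads in knockout. Their summed level was 60.6, 62.1 and 63.7 CPM in control replicates 1, 2 and 3 and 42.8, 31.1 and 31.1 CPM in knockout replicates 1, 2 and 3, with means of 62.1 ± 1.55 CPM and 35.0 ± 6.76 CPM (SD, n = 3). The mean of SERPINB2, chosen because it was lower in knockout, went from 25.1 to 4.84 CPM. The lower sum thus follows in part from that choice. Within the sum, the share of SERPINB2 reads was 40.4 ± 2.86% in control and 13.7 ± 1.78% in knockout, while SERPINB8 held 50.6 ± 3.01% and 69.3 ± 2.06% (SD, n = 3). The shares of SERPINB7 were 8.03 ± 0.779% and 12.5 ± 1.23%, and those of SERPINB5 were 1.02 ± 0.0405% and 4.49 ± 0.406% (SD, n = 3). A larger share of SERPINB8 and SERPINB7 in knockout went with lower or overlapping CPM, since the sum itself was smaller.

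**Figure D2:**
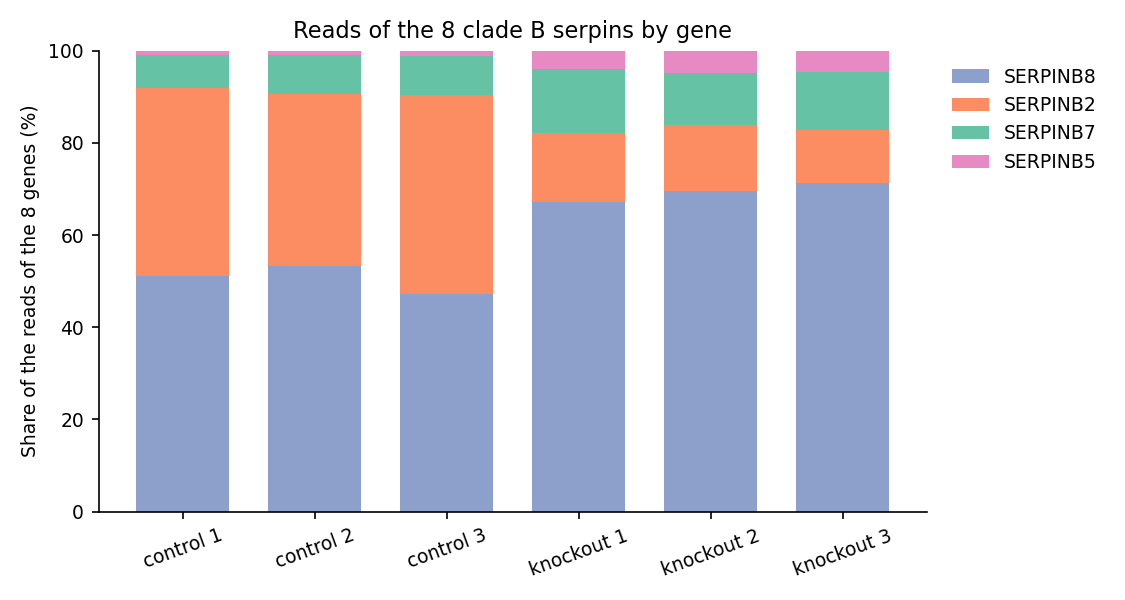
Stacked bars of the percentage of reads of the 8 clade B serpins held by each gene in each of the 6 libraries; SERPINB3, SERPINB4, SERPINB10 and SERPINB13 had 0 reads and are not visible. SERPINB2 holds 40.4% of these reads on average in control and 13.7% in knockout, where SERPINB8 holds 69.3%.

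Across all genes, 14860 rows passed the low-count filter, including SERPINB2, SERPINB5, SERPINB7 and SERPINB8 and none of the 4 genes at 0. By the quasi-likelihood test of edgeR after Benjamini-Hochberg adjustment, 373 of these rows (2.51%) had an adjusted p under 0.05. SERPINB2 and SERPINB5 were 2 of them, which is no test of these genes, as their values in this contrast chose them. Of all rows tested, 161 (1.08%) were higher in knockout, 1 of them being SERPINB5, and 212 (1.43%) were lower, 1 of them being SERPINB2. The CPM of the groups did not overlap in 3465 rows (23.3%), among them 3 of the 4 genes, SERPINB2, SERPINB5 and SERPINB8. Nothing is read from these counts of serpins. The number of rows called was 166 without control replicate 1, 113 without control replicate 2, 141 without control replicate 3, 162 without knockout replicate 2 and 633 without knockout replicate 1. With scaling by library size alone the calls were 185 higher and 155 lower, so the balance of directions over all genes turned with the scaling.

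**Figure D3:**
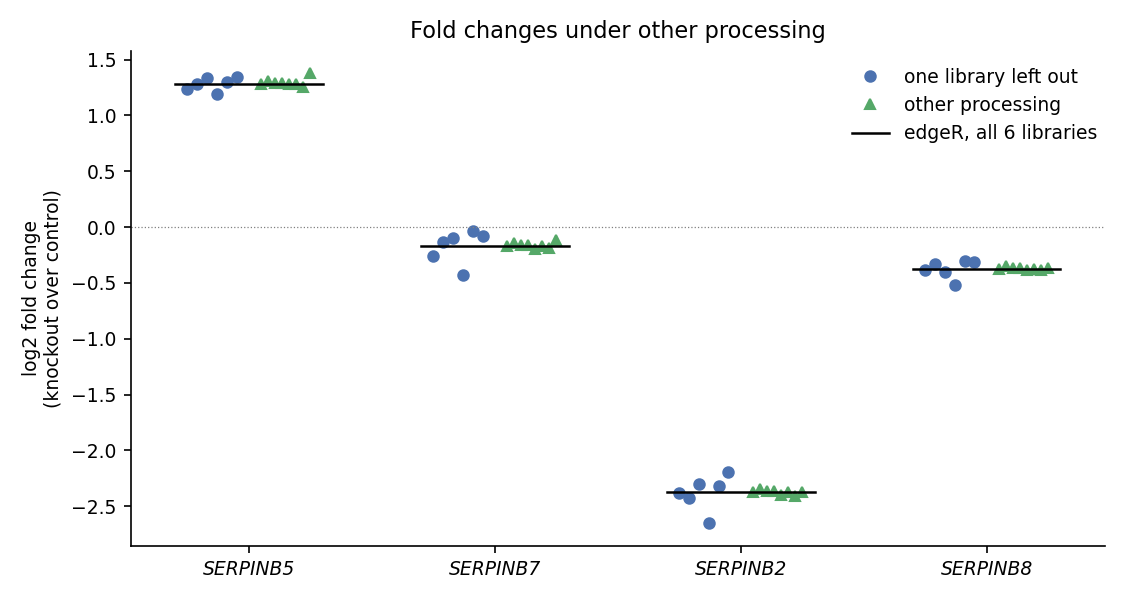
Log2 fold change, knockout over control (vertical axis), of SERPINB5, SERPINB7, SERPINB2 and SERPINB8 with all 6 libraries in edgeR (line), with 1 library left out (blue circles, 6 fits) and under other processing (green triangles, 8 settings). SERPINB2 stays between −2.65 and −2.19 and SERPINB5 between 1.19 and 1.38, while the values of SERPINB7 come as near to 0 as −0.03.

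The clade B serpins outside the 8 genes served as the closest relatives. Of these 5, SERPINB1, an inhibitor of neutrophil elastase, and SERPINB6, which inhibits cathepsin G, passed the filter, and 0 had an adjusted p under 0.05 in edgeR (0 at an unadjusted p under 0.05). SERPINB1 was at 54.5 ± 1.64 CPM in control and 59.4 ± 8.07 CPM in knockout (SD, n = 3; log2 fold change 0.12, SE 0.098, 95% interval −0.09 to 0.34, adjusted p = 0.572 in edgeR). SERPINB6 was at 111 ± 7.20 and 113 ± 7.08 CPM (SD, n = 3; log2 fold change 0.02, 95% interval −0.15 to 0.20, adjusted p = 0.925 in edgeR). SERPINB11 had 0 reads, SERPINB12 had 3 reads in knockout replicate 1 alone, and SERPINB9, the granzyme B inhibitor, had 5 and 2 reads in knockout replicates 1 and 3 and 0 in the other libraries.

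Among 23 serpins of other clades, 8 passed the filter. At an adjusted p under 0.05 in edgeR, 0 rose and 1, SERPINE2, fell (1 higher and 1 lower at an unadjusted p under 0.05). SERPINE2, or protease nexin-1, inhibits thrombin and urokinase outside the cell, and went from 74.2 ± 3.82 CPM to 42.8 ± 4.78 CPM (SD, n = 3; log2 fold change −0.79, SE 0.093, adjusted p = 0.00165 in edgeR), with an adjusted p under 0.05 in each of the 6 fits that left out 1 library. SERPINH1, a collagen chaperone, was at 287 ± 35.0 CPM in control and 303 ± 32.6 CPM in knockout (SD, n = 3; log2 fold change 0.08, adjusted p = 0.757 in edgeR). The median log2 fold change of the 8 was 0.09, beside 0.01 over all 14860 rows. SERPINE2 was thus lower in knockout, as SERPINB2 was, by a smaller amount on the log2 scale.

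Proteases that these serpins act on, with their receptors and the cystatins, formed a list of 33 genes. Of these, 17 passed the filter, 0 rose and 2 fell at an adjusted p under 0.05 in edgeR (2 higher and 4 lower at an unadjusted p under 0.05), with a median log2 fold change of −0.13 beside 0.01 over all rows. F2R, the thrombin receptor, fell from 123 ± 9.22 to 82.0 ± 6.10 CPM (SD, n = 3; log2 fold change −0.58, SE 0.085, adjusted p = 0.00496 in edgeR), and was called in each of the 6 fits that left out 1 library. PLAUR, the urokinase receptor, fell from 33.3 ± 3.47 to 24.8 ± 1.34 CPM (SD, n = 3; log2 fold change −0.42, SE 0.099, adjusted p = 0.0463 in edgeR). That call of PLAUR was lost without control replicate 1 (adjusted p = 0.155 in edgeR), control replicate 2 (0.206), knockout replicate 2 (0.136) and knockout replicate 3 (0.121). It was also lost with library size only (0.0617), with the replicate number as a block (0.0625) and in limma-voom (0.0559), in a range of 0.00835 to 0.206 over all alternatives. The targets of SERPINB2 themselves, PLAU (urokinase) and PLAT (tissue plasminogen activator), were at 79.8 ± 5.82 and 46.3 ± 1.92 CPM in control and 70.8 ± 2.43 and 39.0 ± 2.96 CPM in knockout (SD, n = 3; adjusted p = 0.303 and 0.169 in edgeR; for PLAT 0.0458 without knockout replicate 1, in a range of 0.0458 to 0.468), and PLG, which encodes their substrate plasminogen, had 0 reads. FURIN, the target of SERPINB8, was at 60.2 ± 4.14 CPM in control and 53.6 ± 6.64 CPM in knockout (SD, n = 3; adjusted p = 0.441 in edgeR). The most abundant genes of the list, CTSZ and CTSB, both lysosomal cathepsins, had log2 fold changes of 0.05 and −0.20 (adjusted p = 0.796 and 0.179 in edgeR). PLAU, PLAT and FURIN were chosen after their values were seen, as known targets.

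Squamous epithelial genes, the usual company of SERPINB3, SERPINB4, SERPINB5 and SERPINB13, were mostly scarce. Of 42 on the list, which also held genes known from other cells, 13 were at 0 in all 6 libraries and 17 passed the filter, of which 2 rose and 1 fell at an adjusted p under 0.05 in edgeR (6 higher and 1 lower at an unadjusted p under 0.05). Their median log2 fold change was 0.29, beside 0.01 over all rows. The first of the 2 that rose, LAMP3, is a lysosomal membrane protein best known from mature dendritic cells rather than squamous epithelium, and went from 1.40 ± 0.302 to 3.96 ± 0.389 CPM (SD, n = 3; log2 fold change 1.501, SE 0.20, adjusted p = 0.00315 in edgeR) and kept its call in each of the 6 fits that left out 1 library. GRHL3, a transcription factor of epidermal differentiation, rose from 1.95 ± 0.234 to 3.83 ± 0.298 CPM (SD, n = 3; log2 fold change 0.98, SE 0.18, adjusted p = 0.0153 in edgeR), with an adjusted p of 0.0794 without control replicate 2 and 0.0612 without control replicate 3 in a range of 0.00673 to 0.0794. KLF4, another such factor, fell from 26.3 ± 0.827 to 18.9 ± 1.13 CPM (SD, n = 3; log2 fold change −0.48, SE 0.090, adjusted p = 0.0169 in edgeR). Its adjusted p was 0.0529, 0.0939 and 0.0628 without control replicates 1, 2 and 3 and 0.0629 without knockout replicate 3, in a range of 0.000833 to 0.0939. The most abundant genes of the list, DSC3, PERP and KLF5, did not pass the test, with log2 fold changes of −0.13, −0.01 and 0.15. TP63, the master regulator of squamous cells, had 3 reads in knockout replicate 1 and 0 elsewhere.

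**Figure D4:**
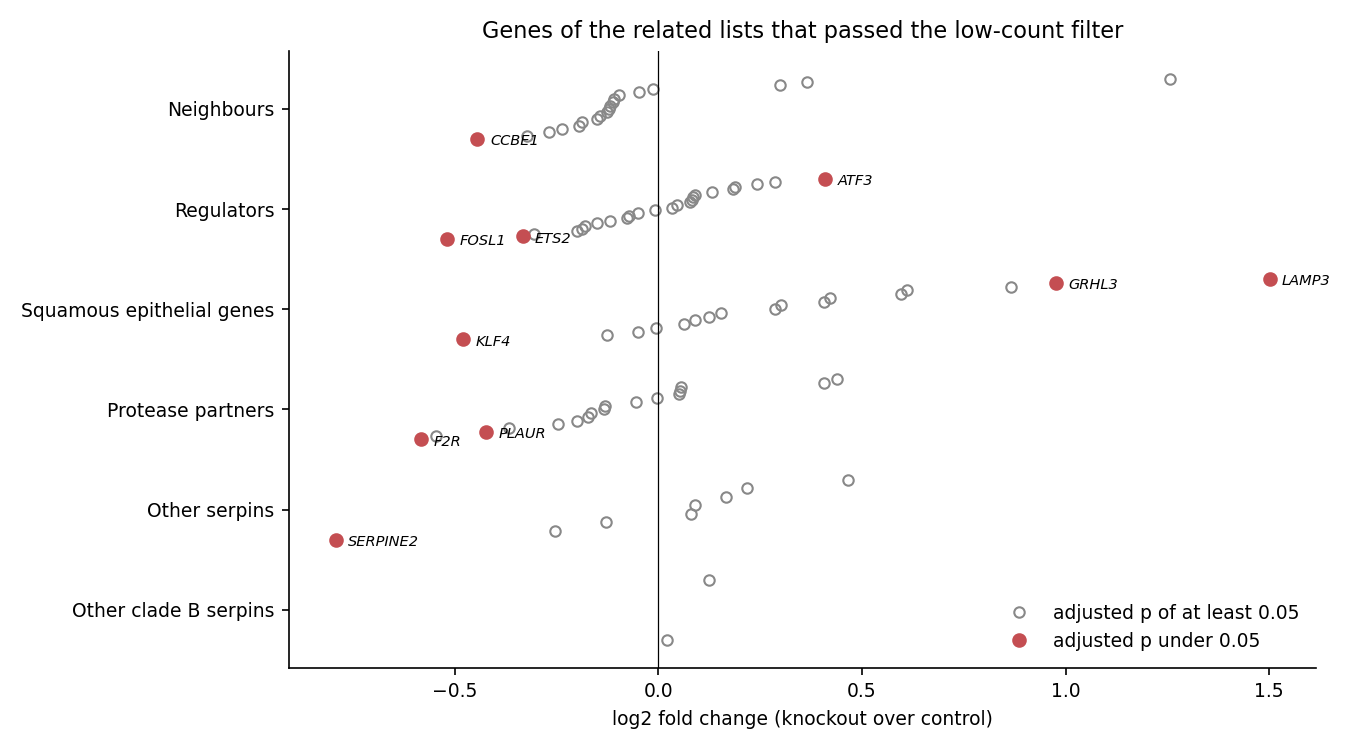
Log2 fold change, knockout over control (horizontal axis), of genes that passed the low-count filter in each of 6 lists related to the clade B serpins; each point is a gene, stacked for legibility, and filled red points are genes with an adjusted p under 0.05. SERPINE2 lies at −0.79 among the other serpins and LAMP3, known best from dendritic cells, at 1.501 on the list of squamous epithelial genes, and both other clade B serpins lie near 0.

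Transcription factors and chromatin enzymes known to act on these genes were all expressed. Each of the 24 listed passed the filter, 1 rose and 2 fell at an adjusted p under 0.05 in edgeR (1 higher and 5 lower at an unadjusted p under 0.05), with a median log2 fold change of 0.01 beside 0.01 over all rows. FOSL1, an AP-1 subunit, fell from 163 ± 10.95 to 114 ± 4.05 CPM (SD, n = 3; log2 fold change −0.52, SE 0.077, adjusted p = 0.00505 in edgeR), a call made in each of the 6 fits that left out 1 library. ETS2 fell from 62.8 ± 2.89 to 49.9 ± 2.24 CPM (SD, n = 3; log2 fold change −0.33, SE 0.079, adjusted p = 0.0492 in edgeR), and ATF3, a stress-induced factor of the AP-1 group, rose from 52.3 ± 1.10 to 69.6 ± 7.86 CPM (SD, n = 3; log2 fold change 0.41, SE 0.092, adjusted p = 0.0394 in edgeR). Of the fits that left out 1 library, only the one without knockout replicate 1 kept either call. The adjusted p of ETS2 in edgeR was 0.169, 0.131 and 0.114 without control replicates 1, 2 and 3 and 0.175 and 0.0829 without knockout replicates 2 and 3. Its range of 0.00578 to 0.175 also held 0.0806 with library size only, 0.116 with the replicate number as a block, 0.0532 after thinning and 0.0556 in limma-voom. For ATF3 the adjusted p in edgeR was 0.111, 0.174 and 0.109 without control replicates 1, 2 and 3 and 0.165 and 0.111 without knockout replicates 2 and 3. Its range of 0.00205 to 0.174 also held 0.0739 with the replicate number as a block and 0.0532 in limma-voom. DNMT1 and RELA, the other abundant genes of this list, were at 304 ± 8.19 and 152 ± 10.6 CPM in control and 269 ± 32.4 and 137 ± 10.8 CPM in knockout (SD, n = 3; adjusted p = 0.338 and 0.395 in edgeR).

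Genes on either side of the row, which share its place on the chromosome, mostly had small values. Within 5 Mb on either side, 28 genes were in the table and 19 passed the filter, of which 0 rose and 1 fell at an adjusted p under 0.05 in edgeR (2 higher and 3 lower at an unadjusted p under 0.05). Log2 fold changes were below 0 for 16 of the 19, with a median of −0.12 beside 0.01 over all rows. CCBE1, a secreted protein of lymphatic growth, fell from 71.5 ± 5.57 to 52.5 ± 2.49 CPM (SD, n = 3; log2 fold change −0.44, SE 0.084, adjusted p = 0.0177 in edgeR). The adjusted p of CCBE1 was 0.0663 and 0.0693 without control replicates 2 and 3 and 0.0926 without knockout replicate 2, in a range of 0.000205 to 0.0926. The nearest neighbours of SERPINB5, VPS4B, KDSR and BCL2, had log2 fold changes of −0.15, −0.27 and −0.24 (adjusted p = 0.395, 0.0979 and 0.343 in edgeR), in the direction opposite to that of SERPINB5, and for KDSR the adjusted p was 0.0400 without knockout replicate 1 and 0.0479 in DESeq2, in a range of 0.0400 to 0.318. LMAN1 and TMX3, the other abundant genes of this list, had log2 fold changes of −0.19 and −0.11 (adjusted p = 0.299 and 0.637 in edgeR), and for LMAN1 the adjusted p was 0.0368 without knockout replicate 1, in a range of 0.0368 to 0.613. PMAIP1 had a log2 fold change of −0.32 (SE 0.11, adjusted p = 0.161 in edgeR, in a range of 0.00913 to 0.397). KDSR, BCL2, PMAIP1 and, at the far end of the stretch, CCDC102B (log2 fold change 1.26, SE 0.31, adjusted p = 0.0545 in edgeR, and 0.0371 with at least 10 counts in every library, in a range of 0.0371 to 0.169) were named after their values were seen.

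**Figure D5:**
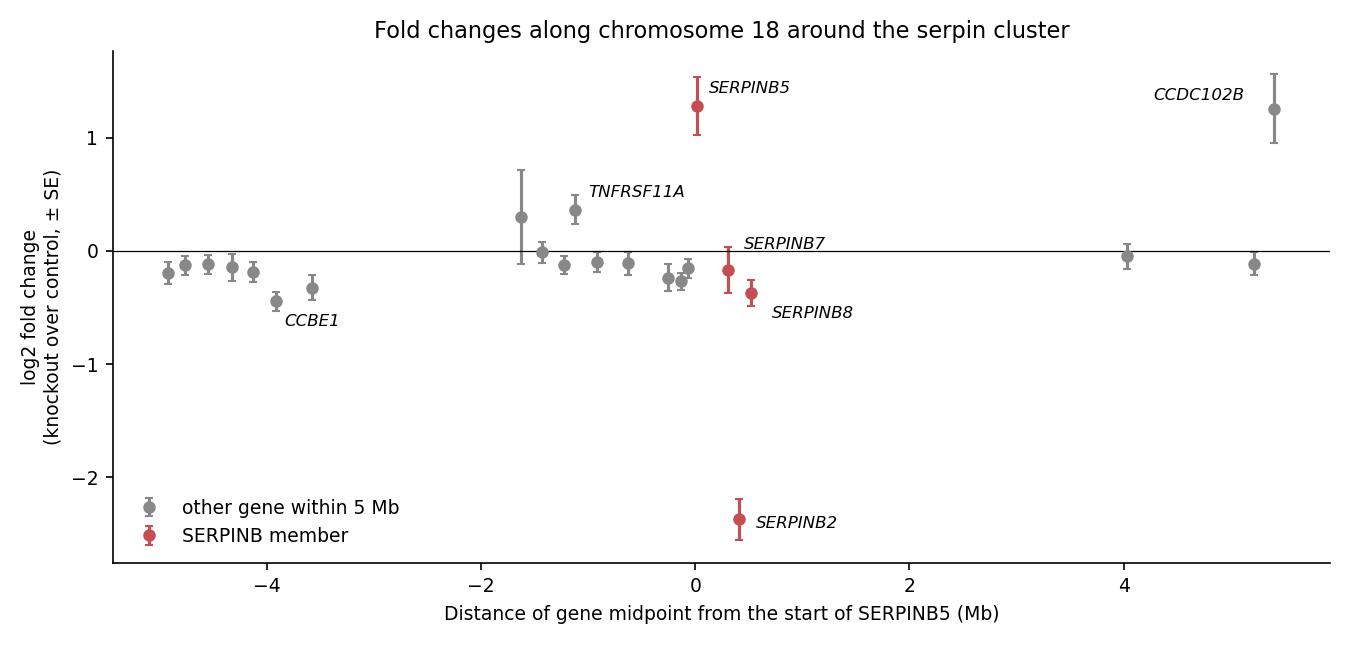
Log2 fold change, knockout over control (vertical axis, bars ± SE), of genes that passed the filter, by distance of the gene midpoint from the start of SERPINB5 in Mb (horizontal axis), with the clade B serpins in red and other genes within 5 Mb in grey. SERPINB5 at 1.28 and SERPINB2 at −2.37 lie on either side of 0 within 542.8 kb, and 16 of the 19 other genes lie below 0.

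The genes whose log2 CPM followed each serpin most closely over the 6 libraries were sought among the 13340 genes whose mean reached 1 CPM. For SERPINB2 they were TMEM200A (Pearson r = 0.996), NOL7 (0.995) and PA2G4 (0.994), and for SERPINB5 they were PDCD4 (0.990), PHYHIPL (0.990) and ZNF136 (0.989). Size did not have to match: TMEM200A had 8.76 ± 0.532 CPM in control and 2.13 ± 0.751 CPM in knockout, whereas NOL7 had 118 ± 0.933 and 107 ± 2.45 CPM (SD, n = 3). For SERPINB7, TRIAP1 (0.992), SOAT1 (0.991) and TTC12 (0.986) came closest, each, like SERPINB7, highest in knockout replicate 1. That library was nearly level with control replicate 3 for TRIAP1 (35.75 against 35.74 CPM) and SOAT1 (201.8 against 200.1 CPM). For SERPINB8 they were UTP25 (0.982), CDK15 (0.982) and a locus assembled from reads, MSTRG.6045 (0.980). Since 6 libraries in 2 groups share depth and group with every gene, these r describe the libraries and were not tested.

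The cell type on the label was compared with marker genes. Of 11 thyroid follicular genes, PAX8 was the most abundant, at 133 ± 15.4 CPM in control and 110 ± 19.1 CPM in knockout (SD, n = 3), FOXE1 and HHEX were also present, 8 were under 1 CPM in mean, TG was at 0.162 ± 0.280 and 0.264 ± 0.0165 CPM (SD, n = 3), and NKX2-1 had 0 reads. The simple epithelial keratins KRT7, KRT8 and KRT18 were high, while EPCAM and CDH1 were under 1 CPM. KRT8 was at 1408 ± 41.4 CPM in control and 1157 ± 8.11 CPM in knockout (SD, n = 3; log2 fold change −0.28, SE 0.068, adjusted p = 0.0507 in edgeR). KRT7 was at 710 ± 31.1 and 760 ± 36.3 CPM and KRT19 at 7.67 ± 0.752 and 8.97 ± 0.993 CPM in control and knockout (SD, n = 3). Their log2 fold changes were 0.10 and 0.23 (adjusted p = 0.540 and 0.426 in edgeR). KRT18 fell from 852 ± 9.45 to 602 ± 44.2 CPM (SD, n = 3; log2 fold change −0.50, SE 0.076, adjusted p = 0.00583 in edgeR), with an adjusted p of 0.0524 without control replicate 2, in a range of 3.52e-08 to 0.0524. The cells thus had the thyroid transcription factors PAX8, FOXE1 and HHEX, without reads of NKX2-1. They had simple keratins without the genes of hormone production at more than trace level.

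Markers of other cells known for clade B serpins were set beside SERPINB2 and SERPINB5. Monocytes and macrophages are a main source of SERPINB2 in the body, and of their 8 markers 6 were under 1 CPM in mean, including CSF1R, LYZ and CD163, and AIF1 had 0 reads. Their summed level was 19.6, 20.4 and 18.3 CPM in control replicates 1, 2 and 3 and 14.8, 13.6 and 14.3 CPM in knockout replicates 1, 2 and 3, most of it CD68. PTPRC, the pan-leukocyte marker CD45, fell from 6.40 ± 0.145 CPM in control to 2.36 ± 0.341 CPM in knockout (SD, n = 3; log2 fold change −1.43, SE 0.16, adjusted p = 0.00127 in edgeR). CD68 was at 12.1 ± 1.25 and 10.0 ± 1.06 CPM (SD, n = 3), and the means of LYZ and CD163 were also lower in knockout. The means of 3 others were higher there, with CD14 at 0.413 ± 0.202 and 0.835 ± 0.399 CPM, ITGAM at 0.354 ± 0.0855 and 0.762 ± 0.337 CPM and CSF1R at 0 and 0.154 ± 0.0554 CPM in control and knockout (SD, n = 3). The part of these markers in the SERPINB2 values was not tested. For SERPINB5, the 5 markers of squamous or basal epithelium summed to 0 CPM in each control library and to 0.211, 0.262 and 0 CPM in knockout replicates 1, 2 and 3, all 5 being under 1 CPM in mean, the most abundant being DSG3 and KRT6A having 0 reads. KRT17 and SFN, on the longer squamous list but not among these 5, were chosen after their values were seen. KRT17 was at 2.92 ± 0.958 and 5.33 ± 0.561 CPM in control and knockout (SD, n = 3; adjusted p = 0.0577 in edgeR, range 0.0170 to 0.201). SFN was at 9.09 ± 2.01 and 12.2 ± 1.27 CPM (SD, n = 3; adjusted p = 0.188 in edgeR). Of the 17 genes tested on that list, log2 fold changes were above 0 for 13 and below 0 for 4. The part of all these genes in the SERPINB5 values was not tested. Of 7 fibroblast markers, COL1A1 was abundant at 860 ± 77.9 and 859 ± 141 CPM (SD, n = 3), but the other 6 were under 1 CPM and DCN and LUM had 0 reads. The 7 summed to 904, 908 and 771 CPM in control and 700, 914 and 967 CPM in knockout replicates 1, 2 and 3. The 4 endothelial markers, VWF the most abundant, summed to 2.05, 1.832 and 2.214 CPM in control replicates 1, 2 and 3. In knockout replicates 1, 2 and 3 they summed to 1.335, 1.245 and 1.715 CPM, each below every control sum.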

How the data were processed

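Gene counts of 6 RNA-seq libraries (3 control, 3 labelled BMAL1 knockout, 150-bp paired-end reads) were used. After removal of adapter-bearing and poor reads and mapping to hg38, the authors counted uniquely mapped reads and deposited these counts gene by gene, neither normalized nor pooled; fastp 0.20.1 and HISAT2 2.0.4 are named for these steps. The annotation and strandedness are not given in the sources used here. Each of the 6 columns was matched to a library by name. The members and gene lists were chosen with earlier results of these data known.

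TMM factors, CPM, log2 fold changes and quasi-likelihood tests (robust fit, default low-count filter, group as the only term, 2-sided) came from edgeR 4.0.16 in R 4.3.3, with Benjamini-Hochberg adjustment over 14860 of 22354 rows and a threshold of 0.05. SE was the size of the log2 fold change over the square root of F. Positions, exon lengths and overlaps came from GENCODE v44, which matched 20018 rows by name; the other 2336, mostly loci assembled from reads, have no position here, so reads credited to such a locus instead of a named gene could not be traced. CPM per kilobase used the union of exons. The marker and likeness values used the same CPM, with a prior count of 2 for log2 CPM. The 4 serpins that passed the filter were part of the fit, but their p-values are not given.

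Named were the 8 members and BMAL1, every gene of a list with an adjusted p under 0.05, the 3 with the highest mean CPM of each list, and for each member with a mean of at least 1 CPM the 3 genes with the highest Pearson r, with others said to be chosen after their values were seen. Some of these genes are not reported here. Total counts ranged from 26893063 to 43563391. Replicates of a group differed by 5.41 to 45.0 times the variance of counting alone. Nothing says that replicates came from separate cultures, so p-values measure only the spread between these samples, which may be technical. The alternatives tried were DESeq2 1.42.0, limma-voom (limma 3.58.1), size factors by median of ratios, scaling by library size only, no filter on low counts, a minimum of 10 counts in each library, thinning to the smallest total, the replicate number as a block and the omission of 1 library at a time.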

Additional observations from a re-analysis of the deposited data

How the results depend on the processing

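The log2 fold changes of the 4 serpins with reads kept their direction under all 14 alternatives. Leaving out single libraries gave −2.65 to −2.19 for SERPINB2, 1.19 to 1.34 for SERPINB5, −0.43 to −0.03 for SERPINB7 and −0.52 to −0.30 for SERPINB8, and the other 8 settings gave −2.41 to −2.35, 1.26 to 1.38, −0.20 to −0.12 and −0.38 to −0.35. The number of genes with an adjusted p under 0.05, 373 in edgeR, ranged from 113 to 633 when single libraries were left out, was 634 (256 higher, 378 lower) in DESeq2 and lay between 277 and 414 in the other 7 settings; the cause was not tested. Replicate numbers did not pair the libraries, as the deviations of same-numbered libraries from their group means correlated at r = −0.0896, −0.0518 and −0.00471, and 0 of the 6 libraries correlated best with its own number; with the replicate block 277 genes were called, the adjusted p in edgeR was 0.0625 for PLAUR, 0.116 for ETS2 and 0.0739 for ATF3, and the log2 fold changes were −0.20 for SERPINB7 and −0.38 for SERPINB8. Of 462 comparisons of an alternative with the edgeR value over 33 other genes that the naming covers, 420 kept their side of the threshold, 37 in 8 genes lost it and 5 in 4 genes gained it. The sign changed in 9 of them, all in 5 genes with an adjusted p over 0.05 (CTSZ, PERP, SERPINB6, SERPINH1 and TMX3), and in 0 of the 13 genes with an adjusted p under 0.05. KRT7, KRT8, KRT17, KRT19, SFN, PMAIP1 and TNFRSF11A were not among the 33 genes. SERPINB5 had only 16 to 19 reads in control libraries, and the 4 genes at 0 are known only up to the limit of 3 counts. With 3 libraries against 3, an exact permutation test of 1 gene cannot go below p = 0.1.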
